A study of Drosophila melanogaster with 19 samples.

Results

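Of the 13929 genes in the deposited counts, 10 genes of the heat shock response and of cytosolic protein folding were followed one by one across all 7 groups of the series. They were the heat shock factor gene *Hsf*, the chaperone genes *Hsp83*, *Hsc70-4* and *DnaJ-1*, and the small heat shock protein genes *Hsp22*, *Hsp23*, *Hsp26*, *Hsp27*, *Hsp67Bc* and *l(2)efl*. They were chosen by symbol, and all 10 were found by their FlyBase identifiers. The series profiles nuclear RNA of outer photoreceptors, the cells of the fly eye that express Rhodopsin 1, in 19 RNA-seq libraries from male *Drosophila melanogaster*. The age groups are D20, D30, D40, D50 and D60, named by days after eclosion, with 3 libraries each from flies kept in a light:dark cycle at 25 degrees C and collected at Zeitgeber time 6. The remaining groups are DD (constant darkness) and LD (light:dark cycle), with 2 libraries each. Their titles mark the light regime. Titles and column headings give different day numbers for them (D101 and D10), so no age is stated for DD and LD. Flies of all groups, controls included, carried UAS-GFP-Msp300KASH at attP2 together with rh1-GAL4, a driver under the Rhodopsin 1 promoter, with the marker alleles w and ry[506]. The driver places green fluorescent protein on the nuclear envelope of outer photoreceptors so that their nuclei can be pulled down from pooled flies. Nuclear RNA includes unspliced transcripts, and values below are its levels, not those of protein. In such bulk samples, fewer cells of a type and less RNA per cell cannot be told apart.

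Hsf is the heat shock transcription factor of the fly. It is largely inactive in unstressed cells and, when unfolded protein accumulates, forms trimers that bind heat shock elements in the promoters of chaperone genes. *Hsp83* encodes the cytosolic Hsp90, *Hsc70-4* the main Hsp70 that is made without stress, and *DnaJ-1* an Hsp40 that stimulates Hsp70. Small heat shock proteins share an alpha-crystallin domain and hold unfolded protein in a soluble state until Hsp70 can refold it, and several of them are strongly induced by heat. Photoreceptors make large amounts of rhodopsin throughout life and depend on chaperones for its folding and transport.

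Totals were 629634 to 864536 counts per library in D30 to D60, 4525799 to 5100377 in D20 and 16255052 to 19704692 in DD and LD. Levels are given as CPM, a gene's count scaled to the library's total, with TMM scaling within each of the 2 deposited tables, one holding D30 to D60 and the other D20, DD and LD. At 3 counts, the level below which a library was read as at its floor, a gene stands at 3.47 to 4.76 CPM in D30 to D60, at 0.588 to 0.663 CPM in D20 and at 0.152 to 0.185 CPM in DD and LD. The DD and LD libraries had counts for 6002 to 8635 genes, against 8530 to 9827 in D30 to D60, despite their higher totals. The floor in CPM therefore does not measure what a DD or LD library could miss. The 8 markers of outer photoreceptors were counted in every group and summed to 51200 to 85800 CPM per library in the age groups, while the 5 glial markers summed to 209 to 535 CPM. In DD and LD the outer markers summed to 120000 to 130000 and 65100 to 70500 CPM, and the glial markers to 434 to 441 and 422 to 738 CPM. Inner photoreceptor markers summed to 4020 to 5180 CPM in DD and 2810 to 2870 CPM in LD, against 64.5 to 196 CPM in the age groups. Lens and pigment cell markers summed to 280 to 355 CPM in DD and 331 to 420 CPM in LD, against 11.8 to 81.6 CPM. Some libraries stood apart from their groups and touch the results below. Replicate 1 of D30 and replicate 1 of D40 differed from the other libraries of their age with a chi-square of 8.109 to 8.891 per degree of freedom, against 1.45 and 1.599 between replicates 2 and 3 of these ages. LD replicate 1 had counts for 6002 genes, against 8259 in LD replicate 2, and the small heat shock genes were all at 0 there. Results of the members that rest on these libraries are given with and without them, as are the calls of list genes that were lost. D50 replicate 1 also differed from the others of its age (5.105 and 7.444, against 3.515 between replicates 2 and 3). So did D20 replicate 2 (7.159 and 4.333, against 2.374 between replicates 1 and 3). Without D50 replicate 1, edgeR called 326 genes in D60 against D50, against 151 with all libraries.

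*Hsf* (FBgn0001222, chromosome arm 2R, 18130303 to 18134634, dm6) passed the test in no comparison. Its libraries held 96.0, 109.7 and 101.4 CPM at D20, 90.8, 96.8 and 89.7 CPM at D30, 82.5, 134 and 125 CPM at D40, 70.9, 87.2 and 70.1 CPM at D50, and 62.5, 71.3 and 93.7 CPM at D60. DD libraries held 54.0 and 74.8 CPM, against 72.2 and 48.1 CPM in LD. The D40 libraries of replicates 2 and 3 were the highest of all 19, and replicate 1 of D40 lay below every D30 library. The group means ran from 114 CPM at D40 through 102 at D20, 92.4 at D30, 76.1 at D50 and 75.8 at D60 to 64.4 in DD and 60.2 in LD. Of the neighbours in this order, only D30 and D50 had libraries that did not overlap. The log2 fold change was -0.27 ± 0.18 (SE, n = 3 each) for D60 against D30, with an adjusted p of 0.32 in edgeR's quasi-likelihood test, and -0.56 ± 0.23 (SE, n = 3 each) for D50 against D40, with an adjusted p of 0.526. D40 against D30 reached an adjusted p of 0.0617 without replicate 1 of both ages.

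**Figure D1:**
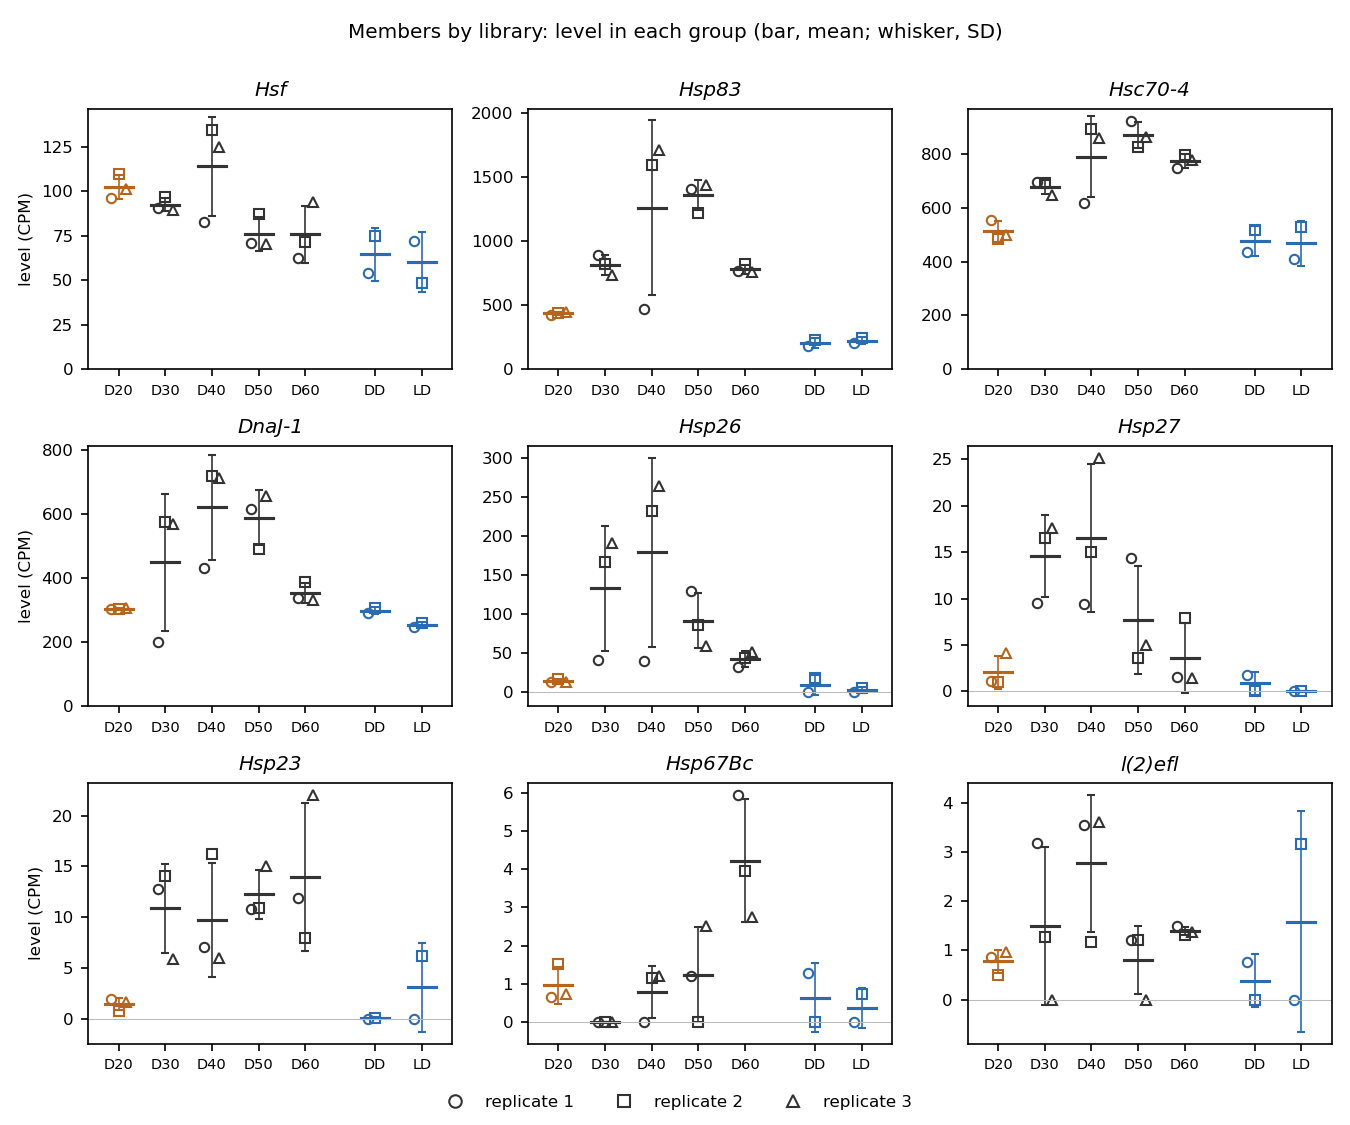
Level in CPM of the 9 members with counts, by library (symbols, replicate number), with the mean (bar) and SD (whisker) of each group, over D20 to D60 and in DD and LD. Replicate 1 of D40 stood at 473 CPM of *Hsp83* while replicates 2 and 3 stood at 1598 and 1715 CPM, and *Hsp26* and *DnaJ-1* were low in replicate 1 of both D30 and D40.

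*Hsp83* (FBgn0001233, chromosome arm 3L, 3192969 to 3197059) was higher in D30 than in D20 and in D50 than in D30, and lower in D60 than in D50. It stood at 421, 441 and 443 CPM at D20, at 890.3, 819.9 and 735 CPM at D30, at 473, 1598 and 1715 CPM at D40, at 1410.0, 1223 and 1442 CPM at D50, and at 763, 821 and 760.4 CPM at D60. D30 lay above D20 and D60 below D50 without overlap, and D60 and D30 overlapped. At D40 replicates 2 and 3 were the highest of all libraries, while replicate 1 was the lowest of D30 to D60. By edgeR, *Hsp83* was 2.01-fold higher in D30 than in D20 (log2 fold change 1.01 ± 0.11, SE, n = 3 each, adjusted p = 2.06e-05) and 1.7-fold higher in D50 than in D30 (0.76 ± 0.15, adjusted p = 0.0315). It fell to 0.573-fold in D60 against D50 (-0.80 ± 0.11, adjusted p = 0.000857), while D60 against D30 gave -0.05 ± 0.10 (adjusted p = 0.799). D40 against D30 gave 0.63 ± 0.35 (SE, n = 3 each) with an adjusted p of 0.771.

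The middle of this course depended on single libraries. *Hsp83* was higher in D40 than in D30 once replicate 1 of both ages was left out, with a log2 fold change of 1.11 and an adjusted p of 8.57e-26, and then D50 against D40 turned to -0.28 (adjusted p = 0.457) from 0.13 with all libraries (adjusted p = 0.959). Leaving out D40 replicate 1 alone gave 1.03 (adjusted p = 0.0162) for D40 against D30. The call of D50 against D30 was lost without D30 replicate 2 (0.76, adjusted p = 0.124), D30 replicate 3 (0.69, 0.183), D50 replicate 1 (0.74, 0.0702), D50 replicate 2 (0.83, 0.0788) or D50 replicate 3 (0.71, 0.0869), and in a fit of all 4 ages (0.74, 0.179). It held without D30 replicate 1 (0.83, 0.0185). The fall in D60 against D50 held without each library, with adjusted p-values of 5.64e-05 to 0.0217, but did not pass in a fit of all 4 ages (-0.80, adjusted p = 0.241). The rise in D30 against D20 held in all 12 alternatives, among which the fit without D30 replicate 1 is repeated. *Hsp83* shares 15 exon bases with *CG14966* on the other strand, 0.507% of its exon length.

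*Hsc70-4* (FBgn0266599, chromosome arm 3R, 15242687 to 15246614) was higher in D30 than in D20. It held 556, 482 and 499.5 CPM at D20, 696, 690.1 and 648 CPM at D30, 616, 894 and 859 CPM at D40, 924, 827 and 862 CPM at D50, and 747, 798 and 776 CPM at D60. Every D30 library lay above every D20 library, and every D50 library above every D30 library, while replicate 1 of D40 again stood below the rest of D30 to D60. The log2 fold change was 0.51 ± 0.11 (SE, n = 3 each) for D30 against D20, a 1.42-fold rise with an adjusted p of 0.00413 by edgeR. D60 against D30 gave 0.20 ± 0.09 (SE, n = 3 each) with an adjusted p of 0.134, and D50 against D30 gave 0.39 ± 0.14 with an adjusted p of 0.217. Without D30 replicate 1, D60 against D30 gave 0.22 with an adjusted p of 0.0132. D40 against D30 gave 0.40 with an adjusted p of 0.000616 when replicate 1 of both ages was left out.

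*DnaJ-1* (FBgn0263106, chromosome arm 3L, 5750029 to 5752189) was lower in D60 than in D50. Its libraries held 303, 305 and 308 CPM at D20, 202.3, 576 and 570.4 CPM at D30, 432, 718 and 712 CPM at D40, 616, 492 and 658 CPM at D50, and 338, 389.5 and 332 CPM at D60. Replicate 1 of D30 stood below all D20 libraries while replicates 2 and 3 stood above them, and all D60 libraries lay below all D50 libraries. *DnaJ-1* fell to 0.598-fold in D60 against D50 (log2 fold change -0.74 ± 0.13, SE, n = 3 each, edgeR adjusted p = 0.00623). In a fit of all 4 ages it did not pass (-0.74, adjusted p = 0.263). Leaving out D60 replicate 1 or D60 replicate 3 ended this call, with -0.71 (adjusted p = 0.0768) and -0.70 (adjusted p = 0.076).

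With all libraries, the other comparisons of *DnaJ-1* did not pass. D30 against D20 gave 0.67 ± 0.26 (SE, n = 3 each, adjusted p = 0.0888) and D60 against D30 gave -0.34 ± 0.29 (adjusted p = 0.451). Without D30 replicate 1, D30 against D20 gave 0.98 (adjusted p = 2.49e-08) and D60 against D30 gave -0.69 (adjusted p = 1.09e-11). Leaving out replicate 1 of both D30 and D40, D40 against D30 gave 0.34 (adjusted p = 0.00939) in place of 0.47 ± 0.32 (adjusted p = 0.818).

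*Hsp26* (FBgn0001225, chromosome arm 3L, 9376418 to 9377427), a cytosolic small heat shock protein induced by heat, was higher in D30 than in D20 and lower in D60 than in D30. It held 12.2, 16.8 and 12.0 CPM at D20, 41.4, 167 and 191 CPM at D30, 40.1, 233 and 265 CPM at D40, 129.7, 86.0 and 58.9 CPM at D50, and 31.2, 43.6 and 51.0 CPM at D60. In D30 and D40 replicate 1 stood at 0.231 and 0.161 times the mean of replicates 2 and 3, at the level of the D60 libraries. The D30 libraries lay above all D20 libraries, and D60 overlapped D30 through replicate 1 of D30 alone. By edgeR, *Hsp26* was 10.6-fold higher in D30 than in D20 (log2 fold change 3.41 ± 0.38, SE, n = 3 each, adjusted p = 2.48e-05), and it fell to 0.317-fold in D60 against D30 (-1.66 ± 0.43, adjusted p = 0.0163). D60 against D50 gave -1.13 ± 0.29 (SE, n = 3 each) with an adjusted p of 0.0512, its groups not overlapping. That comparison passed in 4 of 12 alternatives, among them DESeq2 (adjusted p = 0.0219). It did not pass in a fit of all 4 ages (adjusted p = 0.472), with a replicate block (0.0733) or without any one D60 library (0.114 to 0.248).

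The rise of *Hsp26* in D30 against D20 held in all 12 alternatives, with log2 values of 3.05 to 3.78. The fall in D60 against D30 kept its direction in all 13 and passed in 6. In both comparisons, leaving out replicate 1 of D30 and D40 is the same fit as leaving out D30 replicate 1, and both are counted. It did not pass with DESeq2 (adjusted p = 0.0639), in a fit of all 4 ages (0.0556), or without D30 replicate 2 (-1.48, 0.0539), D30 replicate 3 (-1.34, 0.064), D60 replicate 1 (-1.49, 0.0915), D60 replicate 2 (-1.67, 0.0678) or D60 replicate 3 (-1.81, 0.053). Without D30 replicate 1 it gave -2.07 with an adjusted p of 1.15e-19. Without replicate 1 of D30 and D40, D40 against D30 gave 0.50 (adjusted p = 0.00567) and D50 against D40 gave -1.43 (adjusted p = 0.0289), against 0.43 (0.917) and -0.94 (0.617) with all libraries. Without D50 replicate 3, D60 against D50 gave -1.37 with an adjusted p of 0.00191.

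*Hsp27* and *Hsp23* lie beside *Hsp26* on 3L and were counted at few reads. *Hsp27* (FBgn0001226, 9384063 to 9385694), a small heat shock protein found in the nucleus, had 5, 4 and 17 counts at D20, 6, 13 and 12 at D30, 8, 13 and 21 at D40, 12, 3 and 4 at D50, and 1, 6 and 1 at D60, where the libraries are shallower than at D20. In CPM this was 1.07, 1.00 and 4.09 at D20, 9.56, 16.6 and 17.6 at D30, 9.43, 15.1 and 25.2 at D40, 14.4, 3.63 and 5.01 at D50, and 1.49, 7.92 and 1.38 at D60. In CPM the D30 libraries lay above all D20 libraries, and the D60 libraries lay below all D30 libraries. The lowest D30 library and the highest D60 library both held 6 counts, however. *Hsp27* was 7.62-fold higher in D30 than in D20 (log2 fold change 2.93 ± 0.54, SE, n = 3 each, edgeR adjusted p = 0.00177). Its entry into that test came through D30, where it was high. *Hsp27* did not pass the filter on low counts in D60 against D30. With no filter, that comparison gave -1.95 ± 0.56 with an adjusted p of 0.00659, on 8 counts in D60 and 31 in D30. Leaving out the filter lowered the SE of *Hsp26* there from 0.43 to 0.21 and that of *DnaJ-1* from 0.29 to 0.13. Those of *Hsf*, *Hsp83* and *Hsc70-4* rose slightly. The value of *Hsp27* is therefore not read as a call. *Hsp23* (FBgn0001224, 9381882 to 9382765) had 9, 3 and 7 counts at D20 and 4 to 16 counts in the libraries of D30 to D60.

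*Hsp23* stood at 1.92, 0.753 and 1.68 CPM at D20, at 12.7, 14.0 and 5.88 CPM at D30, at 7.07, 16.2 and 6.00 CPM at D40, at 10.8, 10.9 and 15.03 CPM at D50, and at 11.9, 7.92 and 22.0 CPM at D60. The ages from D30 on overlapped throughout, and all of them lay above D20. The rise was 7.74-fold in D30 against D20 (log2 fold change 2.95 ± 0.50, SE, n = 3 each, edgeR adjusted p = 0.000959), and D50 against D30 gave 0.18 ± 0.44 (adjusted p = 0.888). In D30 against D20, *Hsp23* and *Hsp27* passed the filter of 3.75 CPM only through D30, where they were high. The filter thus favoured a difference in this direction, and their calls are not used as support.

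*Hsp67Bc*, *l(2)efl* and *Hsp22* were at or near the floor. *Hsp67Bc* (FBgn0001229, chromosome arm 3L, 9371511 to 9372497), a small heat shock protein tied to autophagy, had 3, 6 and 3 counts at D20, 0 in all libraries of D30, 0, 1 and 1 at D40, 1, 0 and 2 at D50, and 4, 3 and 2 at D60. D60 thus lay above D30 in each library, by 2 to 4 counts, and both groups are too close to the floor of 3 counts for a fold. *Hsp67Bc* did not pass the filter in any comparison of ages. With no filter its adjusted p was 0.0388 for D60 against D30, a call that rests on 9 counts in all. *l(2)efl* (FBgn0011296, chromosome arm 2R, 23684651 to 23685543), a relative of the alpha-crystallins of the vertebrate lens, had 4, 2 and 4 counts at D20 and 0 to 3 counts per library from D30 on. It shares 10.1% of its exon bases with *St3* on the other strand.

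*Hsp22* (FBgn0001223, chromosome arm 3L, 9372931 to 9374964), whose protein enters mitochondria, had 0 counts in all 19 libraries. In the annotation all 1900 of its exon bases, 100%, are also exon of *CG4456* on the same strand, and *CG4456* had 0 counts in all 19 libraries too. A read that falls in 2 genes is left out by many counting rules, and the rule used for these tables is not given in the sources used here, so the zeros do not show whether *Hsp22* was transcribed.

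Set per kilobase of exon, so that genes can be compared with each other, *Hsc70-4* and *Hsp83* led at every age from D20 to D60 and *DnaJ-1* came next. At D60 the mean level per kilobase was 285 ± 9.38 CPM for *Hsc70-4*, 264 ± 11.6 for *Hsp83*, 163 ± 14.7 for *DnaJ-1*, 41.5 ± 9.86 for *Hsp26* and 26.1 ± 5.53 for *Hsf* (SD, n = 3). At D50 *Hsp83* stood first at 459 ± 39.9 CPM per kilobase, above *Hsc70-4* at 321 ± 18.0 (SD, n = 3). At D20 it stood at 147 ± 4.09, below *Hsc70-4* at 189 ± 14.2 (SD, n = 3). *Hsp26* at D40 stood at 178 ± 121 CPM per kilobase and at D20 at 13.5 ± 2.70 (SD, n = 3). *Hsf*, at 35.2 ± 2.38 CPM per kilobase, was thus above *Hsp26* at D20 and below it at D60. In DD and LD *DnaJ-1* stood above *Hsp83*, at 138 ± 5.16 CPM per kilobase against 69.0 ± 12.1 in DD, and at 117 ± 4.17 against 75.2 ± 9.28 in LD (SD, n = 2). Factors computed over all 19 libraries together changed the mean levels of members by 0.955 to 1.02 times.

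The step between D20 and D30 addressed whether these genes changed early in the course. Of the 5 members that passed the filter in both ages (*Hsf*, *Hsp83*, *Hsc70-4*, *DnaJ-1* and *Hsp26*), 3 were called and all were higher in D30 (*Hsp83*, *Hsc70-4* and *Hsp26*), beside a background of 21.2% of 6380 genes called, 11.8% higher and 9.48% lower. *Hsp23* and *Hsp27* were called too, but they passed the filter through D30 alone and are left out of this count. D30 and D20 come from different tables and differ in depth as the totals above show, so age, table and depth cannot be told apart. Several markers of other cells moved in the same comparison, and their part in these results was not tested. Of the 5 muscle markers, 2 of 3 tested were called higher in D30 (*Mhc* 1.42 ± 0.33 and *Mlc2* 1.22 ± 0.39 on the log2 scale), with summed levels of 57.3 to 113 CPM in D30 and 29.6 to 41.9 CPM in D20, and *Act88F* at 0 in D30. Without D30 replicate 1 the call of *Mlc2* was lost (0.90, adjusted p = 0.162). Of the inner photoreceptor markers 2 of 4 were called higher, *Rh3* (1.08 ± 0.21) and *Rh4* (1.35 ± 0.25), with summed levels of 85.3 to 149 CPM in D30 and 64.5 to 89.3 CPM in D20. Of the markers of other neurons 1 of 4 was called higher, *ple* (0.62 ± 0.16), with summed levels of 182 to 279 CPM in D30 and 226 to 241 CPM in D20. Of the lens and pigment cell markers, *Cpr72Ec* was called higher (1.74 ± 0.38), with a summed level of 12.7 to 76.5 CPM in D30 and 15.1 to 18.2 CPM in D20, and *Crys* stood at 0 to 1.47 CPM in D30. Of the 8 outer photoreceptor markers 1 was called higher and 3 lower, and *Eaat1* was the glial marker called, lower in D30. The haemocyte marker *Hml* and the fat body marker *Lsp2* were called lower, with summed levels of their lists at 22.3 to 26.5 CPM in D30 and 66.9 to 75.7 CPM in D20, and at 334 to 812 CPM in D30 and 843 to 950 CPM in D20.

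From D30 to D40 no member was called. In edgeR 0 of 7 tested members passed and 0 had an unadjusted p under 0.05, beside 0.0238% of 4209 genes called. DESeq2 called 7 genes and 0 members. The replicate 1 libraries of D40 and D30 deviated together (r of deviations 0.283 across genes), but the other replicates did not single out their own number. The fit with a replicate block called 29 genes and 0 members. With replicate 1 of both ages left out, 366 genes were called, among them *Hsp83*, *Hsc70-4*, *DnaJ-1* and *Hsp26*, each higher in D40. Between D50 and D40, a pair added after the data were seen, 0 of 6 members passed in edgeR, with 1 at an unadjusted p under 0.05, beside 0.578% of 4322 genes. For that pair DESeq2 called 43 genes and 0 members. D50 against D30 called 1 of 7 members, *Hsp83*, beside 1.36% of 4179 genes. In that comparison *ple*, a marker of other neurons, was higher too (1.77 ± 0.24 on the log2 scale, SE, adjusted p = 0.00384), with its list at a summed 498 to 757 CPM in D50 and 182 to 279 CPM in D30, and its part in the rise of *Hsp83* was not tested.

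D60 against D50, also added after the data were seen, called 2 of the 5 members tested, *Hsp83* and *DnaJ-1*, both lower in D60, where 3.51% of 4297 genes were called and 1.30% were called lower. In a fit of all 4 ages neither passed, with adjusted p-values of 0.241 for *Hsp83* and 0.263 for *DnaJ-1*. The muscle marker *Mhc* fell as well (-1.68 ± 0.29 on the log2 scale, SE), 1 of 2 muscle markers tested, with summed levels of 47.5 to 55.0 CPM in D60 and 91.4 to 172 CPM in D50. The glial marker *Eaat1* rose by 1.73 ± 0.23. Their part in the fall of the chaperones was not tested.

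Over the whole span, D60 against D30 called 1 of 5 members tested, *Hsp26*, while 23.6% of 4068 genes were called, so the members' share was near the background. The markers called in that comparison were *trp*, *trpl*, *Eaat1* and *ple*, all higher in D60, with glial markers at a summed 475 to 535 CPM in D60 and 211 to 236 CPM in D30. The lens and pigment cell markers summed to 13.4 to 20.7 CPM in D60 and 12.7 to 76.5 CPM in D30, with *Crys* at 0 in D60, and the part of these markers in the fall of *Hsp26* was not tested. A slope on age over the 12 libraries of D30 to D60 called 1 of the 5 members that passed the filter at every age, beside 18.9% of 4745 genes. This was *Hsp26*, at -0.57 ± 0.20 per 10 days on the log2 scale (SE, adjusted p = 0.0465). It did not pass with DESeq2 (-0.61, adjusted p = 0.0509) or with library size alone (-0.56, adjusted p = 0.0566). *Hsp27* was called at -0.62 ± 0.20 (adjusted p = 0.0346), but it reached the filter of 12.7 CPM in 2 libraries each of D30 and D40, 1 of D50 and 0 of D60, so it entered the fit through the younger ages, where it was higher. *Hsp83* had a slope of 0.00 ± 0.12 (SE, adjusted p = 0.998).

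The calls of both slopes rested on single libraries. That of *Hsp26* lost its call without D30 replicate 2 or 3, D40 replicate 2, D50 replicate 2 or 3, or any one library of D60, with slopes of -0.60 to -0.49 and adjusted p-values of 0.0544 to 0.137. That of *Hsp27* lost it without D30 replicate 2 or 3, D50 replicate 2, or D60 replicate 1 or 3, with slopes of -0.65 to -0.52 and adjusted p-values of 0.0523 to 0.11. Under a replicate block the slope of *Hsp26* was -0.50 with an adjusted p of 0.0738. Without replicate 1 of D30 and D40, *DnaJ-1* also passed, at -0.26 per 10 days with an adjusted p of 0.0168.

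**Figure D2:**
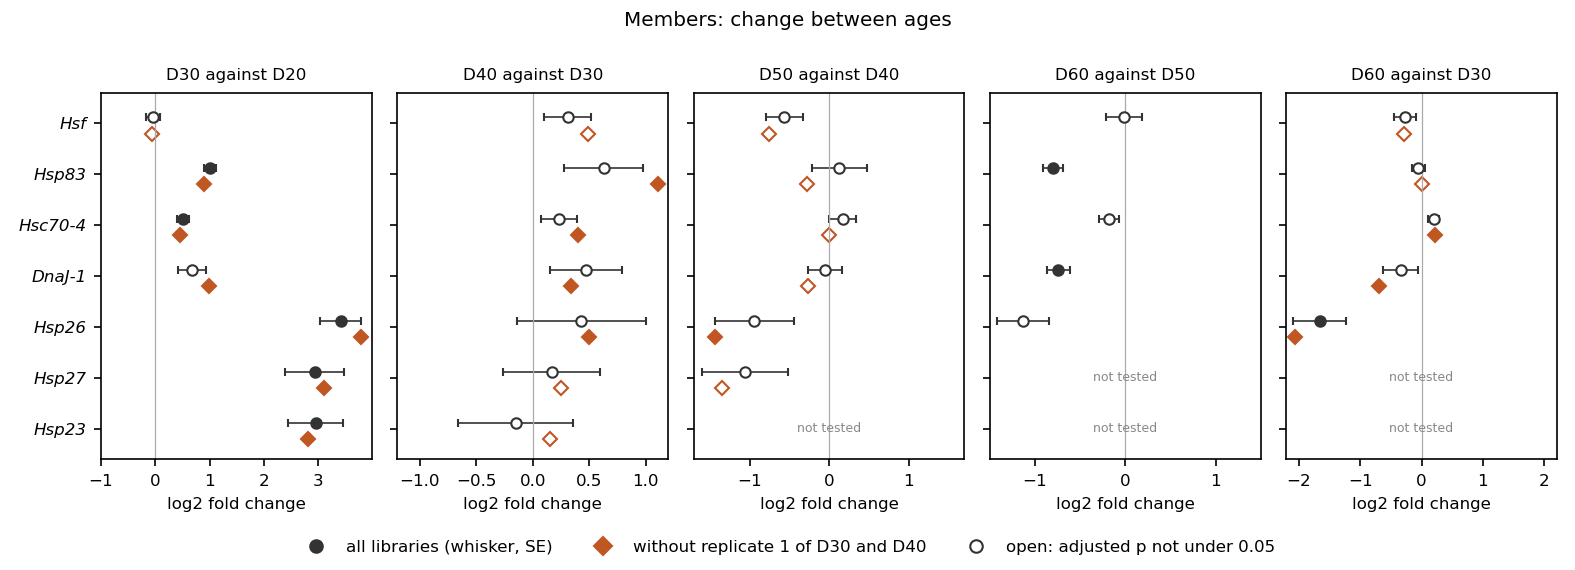
Log2 fold change (x axis) of 7 members (rows) in 5 comparisons of ages, from edgeR on all libraries (circles, with SE) and without replicate 1 of D30 and D40 (diamonds, where the comparison holds one of them), filled where the adjusted p was under 0.05. *Hsp83*, *Hsc70-4*, *DnaJ-1* and *Hsp26* carried filled diamonds in D40 against D30, where no circle was filled, and *Hsp83* and *DnaJ-1* were lower in D60 than in D50.

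The comparison of DD with LD asked whether light affected these genes. No member passed: in edgeR 0 of 7 tested passed and 0 had an unadjusted p under 0.05, beside 0.0250% of 8003 genes called. DESeq2 called 974 genes and 0 members. With 2 libraries a group, the lack of calls does not show that the levels were alike. Marker levels of DD and LD are given above, and their part in this comparison was not tested. *Hsp83* held 60.4 and 77.5 CPM per kilobase of exon in DD, against 68.6 and 81.7 CPM per kilobase in LD (-0.15 ± 0.22 on the log2 scale, SE). *Hsc70-4* held 437 and 516 CPM in DD, against 408 and 527 CPM in LD (0.01 ± 0.21). These groups overlapped. *DnaJ-1* held 291 and 306 CPM in DD and 246 and 259 CPM in LD (0.22 ± 0.17, adjusted p = 0.906), and its DD libraries lay above its LD libraries.

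The small heat shock genes were not steady within DD or LD. *Hsp26* had 0 and 325 counts in DD, against 0 and 126 in LD. *Hsp27* had 27 and 0 counts in DD, against 0 and 0 in LD, and *Hsp23* had 0 and 2 in DD, against 0 and 152 in LD. *Hsp67Bc* had 20 and 0 counts in DD, against 0 and 18 in LD, and *l(2)efl* had 12 and 0 counts in DD, against 0 and 78 in LD. Each of them was thus at 0 in LD replicate 1, the library with the fewest genes, and also at 0 in 1 of the 2 DD libraries. No fold is given. Without LD replicate 1, where the remaining LD library is assumed to vary like DD, the log2 values were 0.37 for *Hsf*, -0.29 for *Hsp83*, -0.19 for *Hsc70-4* and 0.16 for *DnaJ-1*, with adjusted p-values of 0.639 to 0.813.

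The genes most like each member were sought among the 4745 genes tested in the slope fit, by Pearson's r of log2 CPM (prior count 2) over the 12 libraries of D30 to D60. These libraries share their depth range and the replicate 1 libraries that stood apart, so the values are descriptions. *Hsp83* was most like *Hsp110* (r = 0.888), a nucleotide exchange factor of Hsp70, then *CCT4* (0.888), a subunit of the cytosolic chaperonin, and *Hsc70-4* (0.884). *Hsp26* was most like *Cpr72Ec* (0.95), a lens cuticle protein gene, *Hsp68* (0.948), a stress-inducible Hsp70, and *Ten-m* (0.926). *DnaJ-1* was most like *Snoo* (0.929) and then *Hsp70Ab* (0.918), and *Hsf* was most like *CG4080* (0.895), *eIF4G2* (0.895) and *Trim9* (0.871). The genes most like *Hsp27* were *e(y)3* (0.912), *Srpk79D* (0.906) and *Gapvd1* (0.901), and those of *Hsp23* reached only 0.73 with *Pdfr*.

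**Figure D3:**
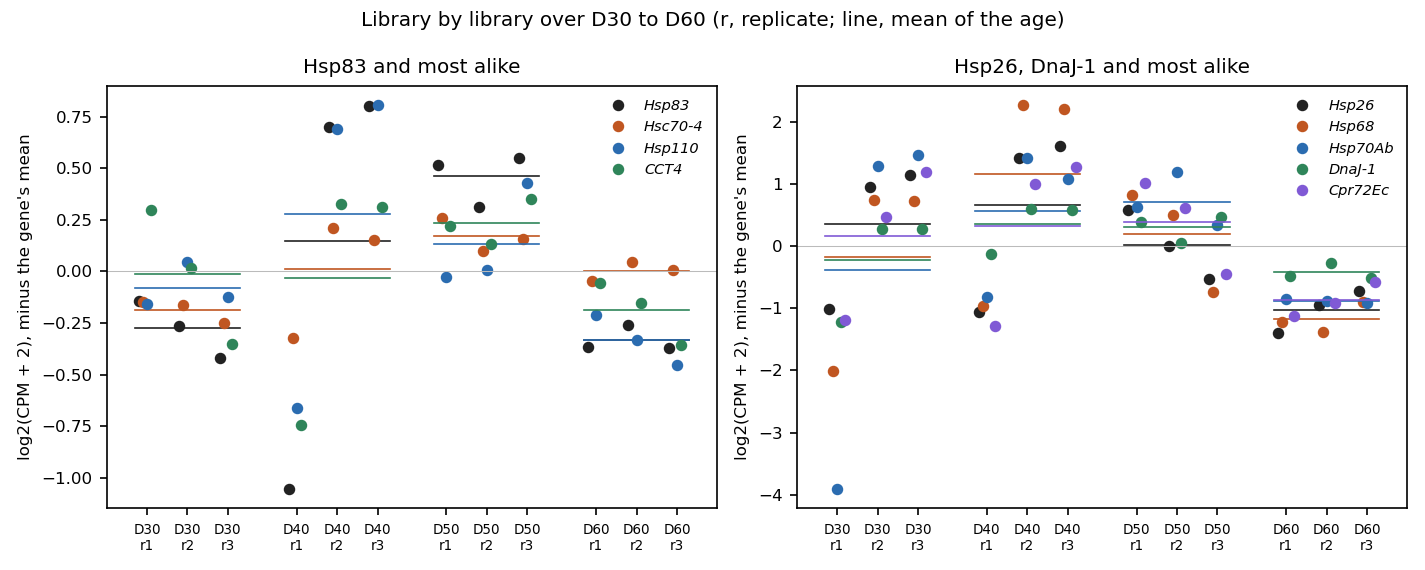
Log2(CPM + 2) minus the mean of the gene (y axis) in the 12 libraries of D30 to D60 (x axis), for *Hsp83* with 3 of the genes most like it (left) and for *Hsp26* and *DnaJ-1* with 3 like them (right). Points are libraries and lines are means of the age. All 4 genes on the left had their lowest D40 library in replicate 1, and all 5 on the right stood below the mean of their age in replicate 1 of D30 and D40.

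The other stress-inducible heat shock genes, the *Hsp70* copies and *Hsp68*, were called higher in D30 than in D20 and lower in D60 than in D50 where they passed. In D30 against D20, 3 of the 5 tested were higher in D30 and none were lower, with a median of 2.66 on the log2 scale, beside 11.8% of all genes higher and a median of 0.01. *Hsp68* and *Hsp70Ab* stood above the filter of 3.75 CPM in every library of both ages. For other list genes, entry into a test through a single group was not checked, here or in the other comparisons. Of the 8 genes of this list 7 were matched, and *lncRNA:Hsromega* was not analysed here. *Hsp68* held 20.7, 152 and 148 CPM in D30, against 16.9, 17.1 and 21.9 CPM in D20 (2.66 ± 0.42, SE, edgeR adjusted p = 0.00049). *Hsp70Ab* held 12.7, 535 and 610.1 CPM in D30, against 21.4, 52.0 and 22.6 CPM in D20 (3.72 ± 0.69, adjusted p = 0.00175). Replicate 1 of D30 did not share the rise of *Hsp70Ab*, since it lay below all D20 libraries. Without it, *Hsp68* gave 3.08 (adjusted p = 3.48e-12) and *Hsp70Ab* 4.24 (adjusted p = 6.94e-13), and in D60 against D30 they gave -1.93 (adjusted p = 9.97e-17) and -2.27 (adjusted p = 4.17e-40), against -1.46 (0.0566) and -1.70 (0.106) with all libraries. The *Hsp70* copies are nearly identical, so their split between copies is uncertain. In D60 against D50, 3 of the 5 tested fell, with a median of -1.55, beside 1.30% of all genes lower and a median of -0.01. *Hsp68* was 37.2, 33.0 and 46.8 CPM in D60, against 159.8, 127 and 52.6 CPM in D50 (-1.55 ± 0.34, adjusted p = 0.0245). Its call was lost without D50 replicate 2 (-1.46, 0.123), D60 replicate 1 (-1.51, 0.126), D60 replicate 2 (-1.44, 0.134) or D60 replicate 3 (-1.70, 0.0763), as was that of *Hsp70Aa* (adjusted p of 0.0621 to 0.18), while that of *Hsp70Ab* held without each library.

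The remaining lists held calls in both directions in D30 against D20, where 11.8% of all genes were higher and 9.48% lower. Of the other alpha-crystallin domain and 67B genes, 1 of 6 was tested in D30 against D20, and this gene, *CG14207*, rose (1.43 ± 0.14 on the log2 scale, SE). Of the partners of Hsp70, 11 of 12 were tested there, with 2 higher (*mrj* 0.68 and *stv* 0.52) and 2 lower (*HIP* -3.05 and *HIP-R* -1.66) in D30, and a median of -0.13. Of the partners of Hsp90, all 7 were tested, none rose and 3 fell, which were *Stip1* (-0.61), the adaptor between Hsp70 and Hsp90, *CG1416* (-0.96), of the Aha family that stimulates the Hsp90 ATPase, and *p23* (-0.96), which holds Hsp90 in its closed state. The median of the list was -0.63, while *Hsp83* itself rose in the same comparison. Of the 14 chaperonin and prefoldin genes, *CCT4* (0.67) and *CCT8* (0.92) rose. The calls of *HIP-R* (-1.19, adjusted p = 0.0775) and *CCT4* (0.48, 0.0994) were lost without D30 replicate 1. Each of the following calls was lost too: *HIP-R* and *stv* without D30 replicate 2 (0.0974 and 0.0743), *Stip1* without D20 replicate 3 (0.0548), *CG1416* without D30 replicate 2 or 3 or D20 replicate 2 or 3 (0.0641 to 0.142), *p23* without D30 replicate 2 or 3 or D20 replicate 1 or 2 (0.0637 to 0.163), *CCT4* without D30 replicate 2 or D20 replicate 1 or 2 (0.0707 to 0.0914), and *CCT8* without D30 replicate 2 or 3 (0.0923 and 0.121). Those of *CG14207*, *mrj* and *HIP* held without each library.

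**Figure D4:**
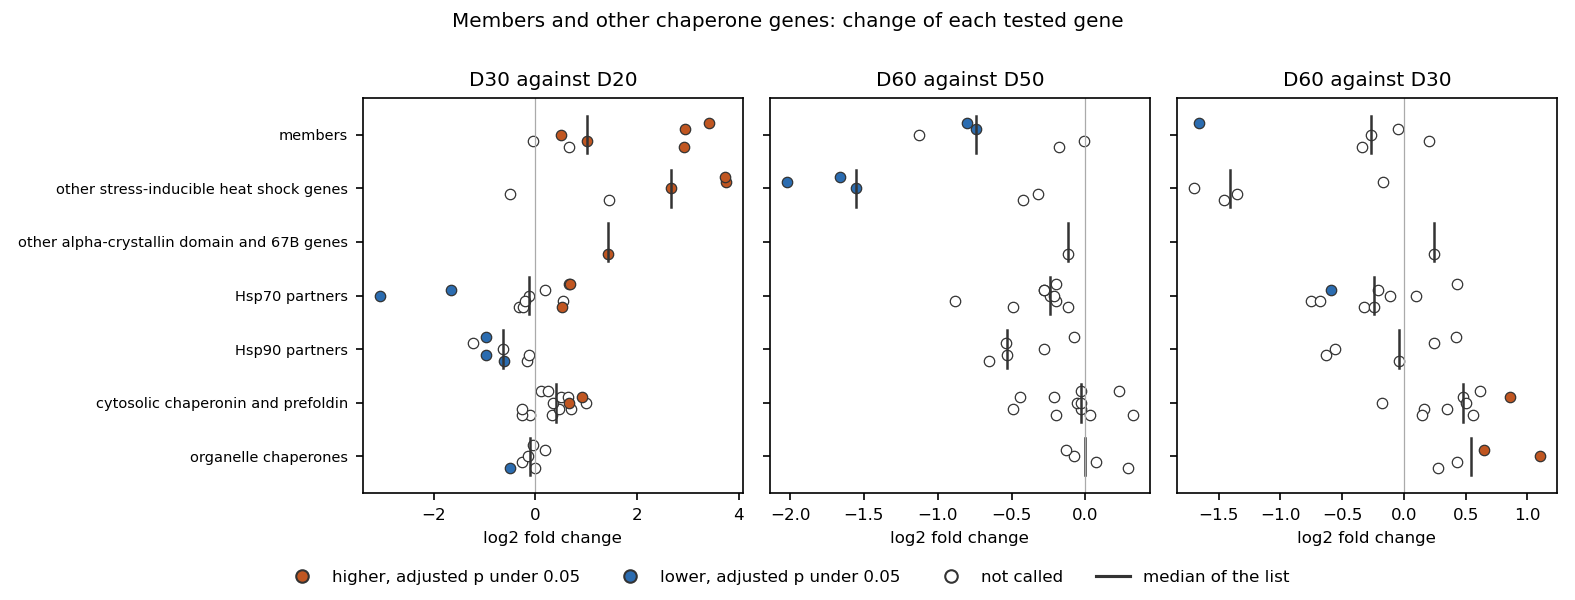
Log2 fold change (x axis) of each tested gene (points) in the members and 6 lists of other chaperone genes (rows) for 3 comparisons of ages, with the median of each list (line) and calls by edgeR in colour. In D60 against D50 the calls lay among the members and the stress-inducible genes, all lower in D60. In D30 against D20 the partners of Hsp90 lay to the left of 0. Most of the members that passed the filter in both of these ages lay to the right. Members that passed it only through D30 are shown there too but are not used as support.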

How the data were processed

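Nuclear RNA-seq counts of 19 libraries were analysed. The authors deposited raw counts per gene, unnormalized, in 2 tables. The submitters' processing notes name Trimmomatic, STAR, SAMtools and DESeq2 and the builds dm6 and BDGP6, and the strand setting and annotation release are not given in the sources used here, so overlapping genes are uncertain. All columns matched a sample, and 13866 of 13929 genes matched Ensembl release 115, whose coordinates are those of dm6.

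Differences were tested with edgeR (version 4.0.16, R 4.3.3): TMM factors, a filter on low counts (minimum count 10, minimum total 15), the quasi-likelihood F-test, two-sided, on the groups compared, with Benjamini-Hochberg adjustment over all genes tested and a threshold of 0.05. SE is the log2 fold change divided by the root of F. Replicates were separate pools of flies, and p-values measure the spread between libraries. Alternatives were RLE factors, library size alone, DESeq2 (version 1.42.0), no filter, a replicate block, shared fits and leaving out each library. Fits without replicate 1 of D30 and D40, and the pairs D50 against D40 and D60 against D50, were added after seeing the data. Same-numbered libraries of D40 and D30 gave an r of deviations of 0.283, 0.126 and 0.136 across genes, for replicates 1, 2 and 3. The main fits held no pairing, and the replicate block by these numbers, from the sample titles, was an alternative only. Replicates 2 and 3 did not single out their own number, since D30 replicate 2 with D40 replicate 3 gave 0.18 and D30 replicate 3 with D40 replicate 2 gave 0.143.

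The members and gene lists were chosen with earlier results of these data known. All members were named. Of the 3 genes most like each member tested in the slope fit, and of the list genes that were called, not all are given.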

Additional observations from a re-analysis of the deposited data

How the results depend on the processing

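Of 313 values of single members under other settings, 280 kept their direction and their side of the threshold, 8 no longer passed, 15 newly passed and 10 turned round; of 320 values without 1 library these were 261, 25, 7 and 27. The cause was not tested. In pairs that hold only 1 of D30 and D40, leaving out replicate 1 of both ages is the same fit as leaving out that library. Such fits enter both totals. With no filter, the members called were 3 in D60 against D30, 1 in D40 against D30 and 1 in D50 against D40. DESeq2 called 0 in D60 against D30 and 1 on the slope, library size alone and the replicate block each called 1 on the slope, and the test of any difference among the ages called 0. In a fit of all 4 ages 0 were called in D60 against D30, in D50 against D30 and in D60 against D50. Without replicate 1 of D30 and D40 the members called were 4 in D60 against D30, 4 in D40 against D30 and 1 in D50 against D40.

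Genes called with no filter were 233 in D50 against D30, 62 in D40 against D30, 279 in DD against LD, 88 in D50 against D40 and 240 in D60 against D50. In a fit of all 4 ages they were 151 in D50 against D30, 8 in D40 against D30, 59 in D50 against D40 and 83 in D60 against D50. DESeq2 called 7 in D40 against D30, 974 in DD against LD and 43 in D50 against D40. The replicate block gave 29 in D40 against D30, 326 in DD against LD and 15 in D50 against D40. Without replicate 1 of D30 and D40 there were 1492 in D60 against D30, 366 in D40 against D30 and 41 in D50 against D40. The test of any difference among the ages called 559, and DD against LD called 9 by library size alone and 279 when D20 shared its fit.

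Values of members that turned round were all uncalled. Without replicate 1 of D30 and D40, *Hsp83* stood at 0.01 in D60 against D30, -0.09 on the slope (0 with no filter) and -0.28 in D50 against D40, and *Hsp23* at 0.15 in D40 against D30. In DD against LD, *Hsc70-4* stood at -0.01 with RLE factors, -0.01 in DESeq2 and -0.26 by library size alone, where *Hsf* stood at -0.17 and *DnaJ-1* at -0.04. Library size alone moved the median of all genes there to -0.21, against 0.06.

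Leaving out each library, genes called ranged from 612 to 1492 in D60 against D30, 21 to 78 in D50 against D30, 0 to 15 in D40 against D30, 894 to 1769 in D30 against D20, 44 to 2241 in DD against LD, 4 to 41 in D50 against D40 and 62 to 326 in D60 against D50. Members called ranged from 0 to 4 in D60 against D30, 0 to 1 in D50 against D30, D40 against D30 and D50 against D40, 0 to 3 on the slope and 1 to 3 in D60 against D50. Log2 values ranged from -0.13 to 0.01 for *Hsp83* in D60 against D30, -0.11 to 0.28 for *Hsp23* in D50 against D30, -0.72 to 0.10 for *Hsp23* and -0.25 to 0.45 for *Hsp27* in D40 against D30, -0.07 to 0.07 for the slope of *Hsp83*, -0.28 to 0.39 for *Hsp83* and -0.27 to 0.05 for *DnaJ-1* in D50 against D40, and -0.20 to 0.11 for *Hsf* in D60 against D50. In DD against LD they ranged from -0.17 to 0.37 for *Hsf*, -0.34 to 0.03 for *Hsp83* and -0.19 to 0.23 for *Hsc70-4*. At the depth of D30 to D60, *Hsp23*, *Hsp27*, *Hsp67Bc* and *l(2)efl* had few counts per library, and any call on them rests on these. With no filter, edgeR called *Hsp67Bc* in D60 against D30 (adjusted p = 0.0388) and on the slope (0.0209).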

Other observations

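*Gp93*, the Hsp90 of the endoplasmic reticulum, held 96.7, 128 and 93.7 CPM in D60, against 44.6, 49.6 and 55.9 CPM in D30, with no overlap (log2 fold change 1.10 ± 0.19, SE, n = 3 each, edgeR adjusted p = 0.00142). It rose by 0.35 ± 0.07 per 10 days over D30 to D60 (SE, adjusted p = 0.000991) and was lower in D30 than in D20 (-0.50 ± 0.16, adjusted p = 0.0419), a call lost without any one library of D30 and without D20 replicate 1 or 3 (adjusted p of 0.0571 to 0.12). *Hsc70-3*, the Hsp70 of that compartment, held 256, 314 and 263 CPM in D60, against 134, 210.1 and 191 CPM in D30 (0.65 ± 0.16, adjusted p = 0.0124), a call lost without D60 replicate 2 (0.56, adjusted p = 0.0744). Without D30 replicate 1, D60 against D30 gave 1.03 for *Gp93* (adjusted p = 6.34e-06) and 0.48 for *Hsc70-3* (adjusted p = 0.000239). Of the organelle chaperones, 2 of 4 tested rose in D60 against D30 and none fell, beside 12.9% of all genes higher and 10.7% lower, with a median of 0.54 against -0.01 over all genes. In the same comparison 1 of 9 chaperonin and prefoldin genes tested rose (*CCT3*, 0.86) and 1 of 9 partners of Hsp70 tested fell (*mrj*, -0.59). The call of *CCT3* was lost without D30 replicate 2 or 3 or any one D60 library (adjusted p of 0.077 to 0.152), and that of *mrj* without D30 replicate 3 or any one D60 library (0.0706 to 0.157).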
